A study of Mus musculus with 13 samples.

Results

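The V genes of the T cell receptor beta chain were measured in CD4+ T helper cells sorted from the spleens of mice with multiple myeloma. The members are all rows of the gene table whose symbol starts with Trbv, 35 of 56748 genes. Each was expressed as a percentage of all Trbv counts of its library, called its share or usage here, and as a level in CPM, that is its counts relative to the TMM-scaled library size.

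A T cell receptor beta chain is built in the thymus by joining 1 of the Trbv genes to a D segment, a J segment and a constant region, Trbc1 or Trbc2. Each T cell normally expresses a single rearranged beta chain, so the mixture of Trbv transcripts in a sorted population mirrors the mixture of receptors, weighted by the RNA each cell holds. V gene usage is uneven in any repertoire, and it shifts when clones expand, when superantigens delete cells bearing a given V gene, or when cells with a restricted receptor are present. In mice, invariant natural killer T (NKT) cells pair their alpha chain mainly with Vβ8.2, Vβ7 and Vβ2, the older names of Trbv13-2, Trbv29 and Trbv1. Fewer cells using a V gene and less RNA of it per cell cannot be told apart in these sorted populations.

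The 13 libraries formed 5 groups, and every mouse carried a Thy1.1 reporter of Foxp3. All animals were given 50 µg of an antibody that depletes NK1.1+ cells on days -2 and 5, and Vk12653 myeloma cells on day 0. Antibody at 20 µg, either an agonist of the costimulatory receptor 4-1BB or a control IgG, was given on days 10, 13 and 16, and spleens were taken on day 18. The sort took TCR+ CD4+ Thy1.1- cells, so that cells expressing the Foxp3 reporter were left out. Eomes-GFP mice, which report the T-box factor Eomes with GFP, gave 3 GFP+ and 3 GFP− libraries after the 4-1BB antibody. Eomes-TKO mice, whose construction the labels do not describe, gave 2 libraries after the 4-1BB antibody and 3 after control IgG, and Eomes-GFP mice gave 2 libraries after control IgG. Cells of these last 3 groups were not divided by GFP. Each GFP+ library shared a library prefix with 1 GFP− library, and otherwise the labels do not say whether replicates were separate animals, so p-values speak only of the spread among these 13 libraries.

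Library totals ran from 6080956 to 10881129 estimated counts, of which 1114 to 2664 fell on Trbv genes. A count of 0 therefore allows a share of up to 0.113% to 0.269% of Trbv counts, by counting error only. Eomes stood at 570, 706 and 685 CPM in GFP+ libraries and at 3.54, 1.83 and 2.26 CPM in GFP− libraries, as the sort on the Eomes reporter sets it. The summed level of 7 markers of CD4 T cells was 4870 to 5454 CPM in GFP+ libraries and 2991 to 3890 CPM in the other 10. Of the markers of other cells, the summed level of the CD8 genes Cd8a and Cd8b1 was 3.46 to 9.35 CPM in GFP+ libraries and 5.34 to 12.3 CPM in the other 10. The 4 gamma-delta T cell genes summed to 9.67 to 28.1 CPM in GFP+ libraries and 10.2 to 25.4 CPM in the other 10, and the 4 plasma cell genes to 49.1 to 65.6 CPM in GFP+ libraries and 47.5 to 62.7 CPM in the other 10. Most of the plasma cell sum was Xbp1, at 48.9 to 65.1 CPM in GFP+ libraries. Jchain had 4.68 and 3.23 CPM in Eomes-TKO libraries after 4-1BB antibody and at most 0.554 CPM in the others. The 5 B cell genes summed to 0.393 to 1.66 CPM in GFP+ libraries and 1.20 to 4.90 CPM in the other 10. Only 1 of these B cell genes was tested, Cd79a, and it was called lower in GFP+ than in GFP− cells. Its levels were low, at 0.277, 0 and 0.430 CPM in GFP+ libraries, against 0.976, 0.853 and 1.81 CPM in GFP− libraries. Cd79b of the same list had 1.11, 0 and 0.967 CPM in GFP+ libraries, against 0.488, 0.366 and 0.361 CPM in GFP− libraries. Cd8b1 was called lower in GFP+ than in GFP− cells by level (-1.09 ± 0.40, adjusted p 0.0445, edgeR). Cd8a was not called, with 2.36, 0.262 and 3.76 CPM in GFP+ libraries, against 1.10, 2.44 and 0.813 CPM in GFP− libraries. By summed level, the lists of myeloid, regulatory T cell and innate-like T cell markers set the GFP+ libraries apart. Not every marker followed the sum of its list, and the values stand with the level results.

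Of the 35 Trbv rows, GENCODE M21 annotates 22 as V genes and 13 as V pseudogenes, all on chromosome 6. With sufficient counts, 21 rows entered the tests. The 14 others were 12 pseudogenes and the V genes Trbv21 and Trbv30, and 10 rows had no count in any library. The pseudogene that entered the tests, Trbv24, made up 0.253% to 0.914% of Trbv counts in a library. Trbv31, the V gene transcribed from the opposite strand to the rest of the locus, averaged 7.03% over the 13 libraries.

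The 3′ ends of 8 V gene coding sequences are shown, because this stretch runs into the receptor's CDR3 loop, its most variable part, and lets near-copies be told from distinct genes. They cover the genes whose share fell in GFP+ cells (Trbv1 and Trbv14), those whose level rose (Trbv2, Trbv5, Trbv13-2 and Trbv16), and the closest relatives of Trbv13-2. Each is the last 90 coding bases, 5′ to 3′, of the GENCODE M21 transcript on GRCm38, with the codon of the conserved cysteine at the end of the V domain in capitals.
Trbv1: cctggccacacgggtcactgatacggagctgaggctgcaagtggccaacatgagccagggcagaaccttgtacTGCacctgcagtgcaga
Trbv14: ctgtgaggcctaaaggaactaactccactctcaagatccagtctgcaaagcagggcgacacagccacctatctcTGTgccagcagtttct
Trbv2: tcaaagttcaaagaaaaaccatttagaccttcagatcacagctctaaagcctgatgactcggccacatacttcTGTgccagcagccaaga
Trbv5: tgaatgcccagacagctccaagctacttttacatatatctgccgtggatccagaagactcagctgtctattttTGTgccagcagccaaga
Trbv16: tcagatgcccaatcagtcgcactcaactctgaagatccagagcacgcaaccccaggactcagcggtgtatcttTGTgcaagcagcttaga
Trbv13-1: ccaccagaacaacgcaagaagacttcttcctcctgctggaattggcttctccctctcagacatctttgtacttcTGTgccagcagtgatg
Trbv13-2: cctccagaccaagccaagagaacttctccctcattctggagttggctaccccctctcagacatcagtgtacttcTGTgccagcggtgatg
Trbv13-3: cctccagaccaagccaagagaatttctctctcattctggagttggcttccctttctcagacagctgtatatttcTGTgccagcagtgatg

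Trbv13-2 and Trbv13-3 were identical at 90.6% of coding positions, with a longest shared run of 50 bases, and Trbv13-1 and Trbv13-2 at 87.9%, with a run of 34 bases. Trbv12-1 and Trbv12-2 were identical at 88.2%, with a run of 44 bases. Reads could be split between the copies in these groups, so their single values are uncertain. Trbv1 had no such relative, its closest being Trbv13-1 at 54.2%, and for Trbv14 the closest was Trbv16 at 66.1%.

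Usage was spread over many V genes in every library. Of the 35 rows, 9 averaged at least 5% of Trbv counts, 9 averaged 1% to 5% and 17 averaged under 1%. The 9 leading genes, Trbv1, Trbv2, Trbv3, Trbv5, Trbv13-1, Trbv13-2, Trbv15, Trbv19 and Trbv31, together made up 66.3% to 71.4% of Trbv counts. By counts, Trbv3 had the largest share in 11 libraries, Trbv13-2 in GFP+ replicate 1 with 13.4%, and Trbv5 in Eomes-TKO control IgG replicate 2 with 10.7%.

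Because longer transcripts collect more reads, genes were ranked against each other on counts divided by transcript length. On that scale Trbv3 averaged 10.3% over the 13 libraries (range 7.57% to 13.8%), Trbv5 averaged 10.0% (6.91% to 14.6%) and Trbv13-2 averaged 8.64% (5.89% to 15.6%). Trbv15 followed with 7.14%, Trbv13-1 with 6.88% and Trbv31 with 6.79%. The ranges of neighbours in this order overlapped, so their order is not separated by the spread over libraries.

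**Figure D1:**
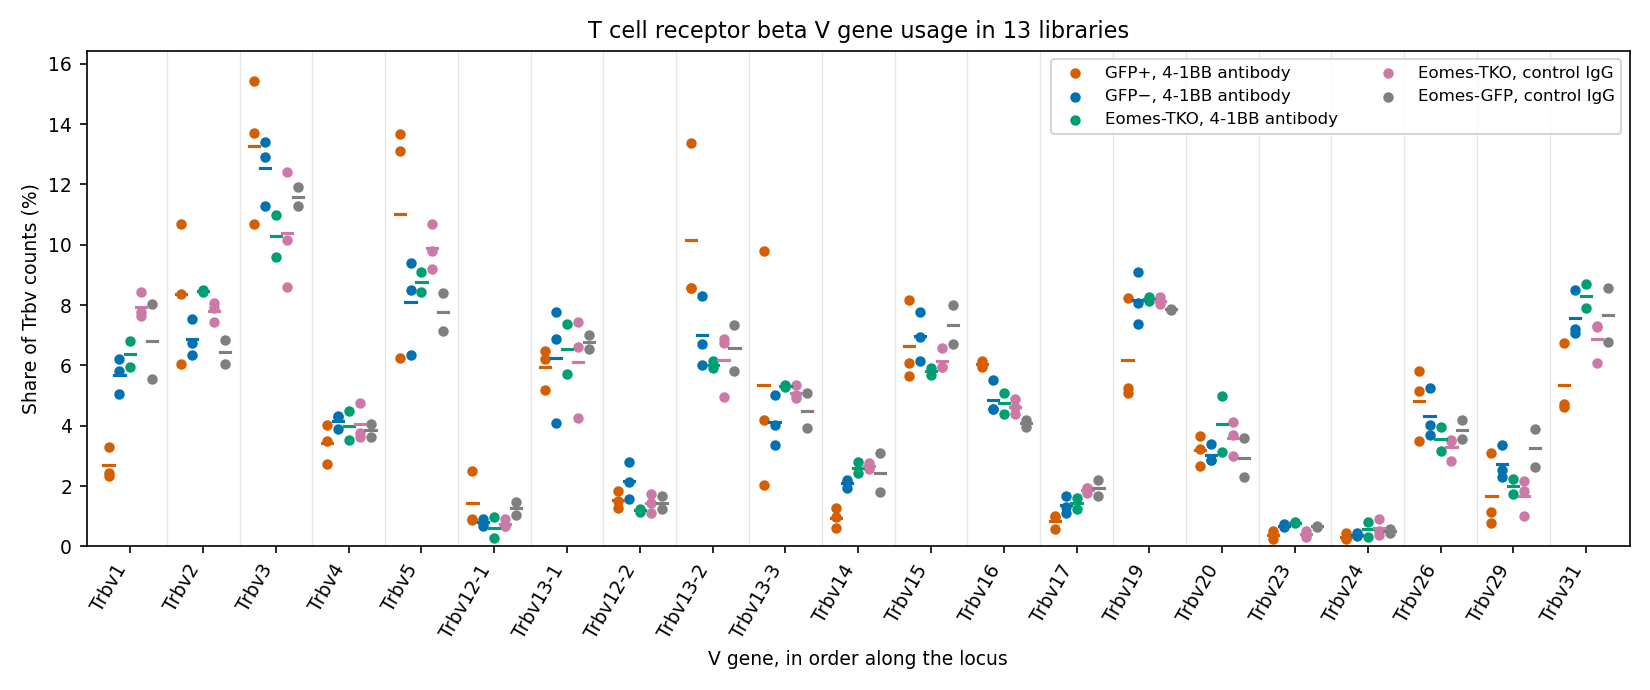
Share of Trbv counts in percent (y axis) for the 21 tested V genes, in their order along the locus (x axis). Each point is 1 library, colours are the 5 groups and short bars are group means. The GFP+ points of Trbv1 (2.34% to 3.29%) and Trbv14 (0.609% to 1.27%) lie below all 10 other libraries.

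The first question was whether Eomes-expressing helper cells use the same V genes as their Eomes-negative counterparts after the 4-1BB antibody. GFP+ cells held a lower share of Trbv1 and Trbv14 than GFP− cells, at less than 50% of the GFP− mean for each. No V gene had a higher share past the threshold. In the usage test, which scales each library to its Trbv total, 2 of 21 V genes were called, both lower, against 31.0% of all 14059 genes called in the same fit, 9.18% higher and 21.8% lower. The share of V genes called, 9.52%, lay below that background.

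Trbv1, formerly Vβ2, made up 2.34%, 2.44% and 3.29% of Trbv counts in GFP+ libraries, against 5.06%, 6.21% and 5.82% in GFP− libraries. The groups did not overlap, and all 10 libraries outside the GFP+ group lay between 5.06% and 8.43%. The mean was 2.69% ± 0.52 in GFP+ and 5.70% ± 0.589 in GFP− cells (SD, n = 3 each), a log2 fold change in usage of -1.08 ± 0.22 (SE) with an adjusted p of 0.00218 by edgeR's quasi-likelihood test. The shares rest on 37 to 81 Trbv1 counts per GFP+ library. The 95% Wilson intervals of the GFP+ libraries ended at 3.21%, 3.13% and 4.07%, and those of the GFP− libraries began at 4.07%, 5.17% and 4.99%. Within the prefix pairs the log2 ratio of shares was -1.11, -1.35 and -0.82, and the call was kept under all 12 alternatives, with adjusted p between 0.000107 and 0.012.

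Trbv14, formerly Vβ13, made up 1.27%, 0.976% and 0.609% in GFP+ libraries, against 1.94%, 2.13% and 2.21% in GFP− libraries. Here too the groups did not overlap, and the other 10 libraries lay between 1.79% and 3.11%. The log2 fold change in usage was -1.16 ± 0.33 with an adjusted p of 0.0161 by edgeR, on 15 to 24 Trbv14 counts per GFP+ library. Without GFP+ replicate 3, the lowest of the 3, the change was -0.91 and the adjusted p was 0.0751.

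Only these 2 genes passed the threshold, but 7 of 21 V genes had shares that did not overlap between the 3 GFP+ and the 3 GFP− libraries, against 43.5% of all genes scaled in the same way, 12.4% higher and 31.1% lower. Of the 7, Trbv13-2 and Trbv16 were higher and Trbv1, Trbv14, Trbv17, Trbv23 and Trbv31 were lower. Trbv16, formerly Vβ11, was the most even of them within GFP+ cells, with 5.95%, 6.06% and 6.13% in GFP+ libraries, against 5.51%, 4.55% and 4.54% in GFP− libraries. Its usage difference was 0.32 ± 0.20 with an adjusted p of 0.232. Trbv31 had 4.62%, 4.72% and 6.74% in GFP+ libraries, against 7.06%, 7.19% and 8.48% in GFP− libraries, with a usage difference of -0.50 ± 0.21 and an adjusted p of 0.0814.

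Within the 3 prefix pairs, 2 V genes (Trbv13-2 and Trbv16) were higher in GFP+ cells in every pair and 8 were lower in every pair, while 11 changed direction between pairs. Over all tested genes 17.5% were higher and 48.9% were lower in every pair on this scaling. The 8 were Trbv1, Trbv4, Trbv12-2, Trbv14, Trbv17, Trbv19, Trbv23 and Trbv31. For Trbv13-2 the pairs differed widely, with log2 ratios of 1.15, 0.05 and 0.35.

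**Figure D2:**
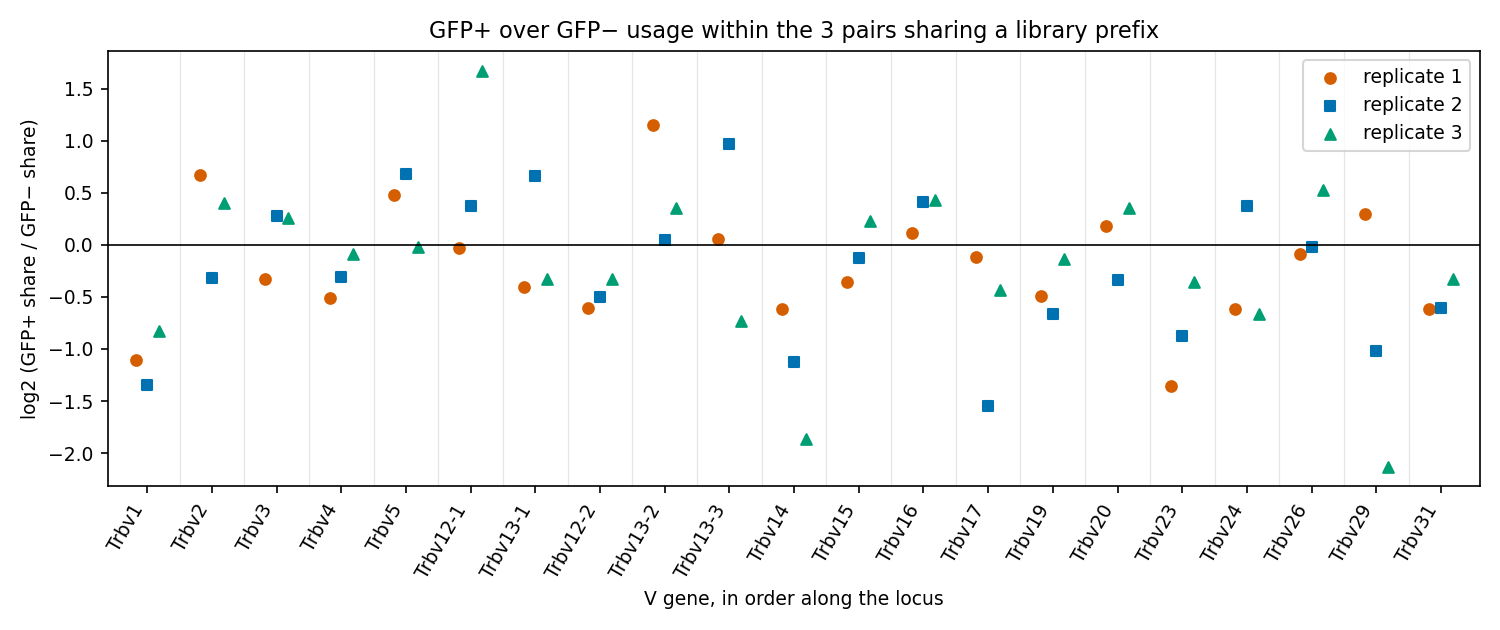
Log2 ratio of the GFP+ share to the GFP− share (y axis) for the 21 tested V genes (x axis) in each of the 3 pairs of libraries that share a prefix; 0 means equal shares. Trbv1 (-1.11, -1.35 and -0.82) and Trbv14 (-0.62, -1.13 and -1.86) lie below 0 in all 3 pairs, while Trbv13-3 and Trbv29 spread to both sides.

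The level of V gene RNA, scaled to the whole library with TMM, gave a different list. Summed Trbv RNA was 219, 322 and 265 CPM in GFP+ libraries, against 188, 212 and 241 CPM in GFP− libraries. These groups overlapped (exact permutation test, two-sided, p = 0.2, where 0.1 is the smallest these group sizes allow), although each GFP+ library was higher than the GFP− library of its prefix, by 30.6, 110 and 24.0 CPM. By level, edgeR called 5 of 21 V genes, 4 higher and 1 lower, against 37.1% of all genes, 20.7% higher and 16.5% lower. The median log2 fold change was 0.26 over the 21 V genes and 0.02 over all tested genes.

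Trbv13-2, formerly Vβ8.2, stood at 29.2, 27.6 and 22.7 CPM in GFP+ libraries, against 11.3, 17.5 and 16.2 CPM in GFP− libraries. The groups did not overlap, the log2 fold change in level was 0.82 ± 0.21 (adjusted p 0.00791, edgeR), and the call was kept under all 13 alternatives. By usage its difference was 0.53 ± 0.23 with an adjusted p of 0.0914, so its share alone did not pass.

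Trbv2, formerly Vβ4, had 23.4, 19.5 and 22.1 CPM in GFP+ libraries, against 12.7, 16.0 and 15.3 CPM in GFP− libraries. Its level rose by 0.57 ± 0.16 on the log2 scale (adjusted p 0.012, edgeR). The call was lost without GFP+ replicate 1 or without GFP− replicate 1, with adjusted p up to 0.0589.

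Trbv16 had 13.0, 19.5 and 16.2 CPM in GFP+ libraries, against 10.4, 9.63 and 10.9 CPM in GFP− libraries, and it rose by 0.66 ± 0.20 (adjusted p 0.0184, edgeR). Its adjusted p reached 0.106 among the 4 single-library omissions that ended the call, those of GFP+ replicates 2 and 3 and GFP− replicates 1 and 2. Trbv5, formerly Vβ1, had 28.7, 44.0 and 16.5 CPM in GFP+ libraries, against 17.7, 18.0 and 15.3 CPM in GFP− libraries, so GFP+ replicate 3 lay within the GFP− range. Its rise of 0.80 ± 0.27 (adjusted p 0.0327, edgeR) was kept in 5 of 13 alternatives only and lost in 5 of the 6 single-library omissions, among them those of GFP+ replicates 1 and 2 and of each GFP− replicate. Its log2 fold change ran from 0.37, without GFP+ replicate 2, to 1.06 over these omissions.

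Trbv1 fell by level as well as by share. It had 5.13, 7.86 and 8.70 CPM in GFP+ libraries, against 9.51, 13.2 and 14.0 CPM in GFP− libraries, a log2 fold change in level of -0.75 ± 0.23 (adjusted p 0.0203, edgeR). Leaving out GFP+ replicate 1, GFP− replicate 2 or GFP− replicate 3 ended this call, with adjusted p up to 0.0844. Trbv14 had 2.77, 3.14 and 1.61 CPM in GFP+ libraries, against 3.66, 4.51 and 5.33 CPM in GFP− libraries, and its level difference of -0.86 ± 0.33 had an adjusted p of 0.0508.

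Markers of innate-like NKT cells were also lower, as a sum, in GFP+ than in GFP− libraries. The summed level of Zbtb16, Klrb1c and Trav11 was 0.524 to 1.93 CPM in GFP+ libraries, against 9.21 to 19.6 CPM in GFP− libraries. Zbtb16, which encodes the transcription factor PLZF of innate-like T cells, fell by 4.24 ± 0.52 on the log2 scale, and Klrb1c, which encodes NK1.1, differed by -1.53 ± 0.47 (adjusted p 3.28e-05 and 0.0185, edgeR). Trav11, the alpha V gene of invariant NKT cells, was at 0, 0 and 0.322 CPM in GFP+ libraries, against 0, 0.853 and 1.17 CPM in GFP− libraries, and did not pass. In the other groups the sum was 15.2 to 19.2 CPM in Eomes-TKO cells after 4-1BB antibody, 30.1 to 40.5 CPM in Eomes-TKO cells after control IgG and 22.1 to 41.4 CPM in Eomes-GFP cells after control IgG. Of the other V genes named above for such cells, Trbv29 had a usage difference of -0.76 ± 0.45 and Trbv13-2 of 0.53 ± 0.23 in GFP+ against GFP− cells, and neither passed (adjusted p 0.218 and 0.0914, edgeR). The part of NKT cells in the Trbv1 difference was not tested.

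As a summed list, myeloid markers set the GFP+ libraries apart too. The summed level of Lyz2, Itgam, Csf1r and Cd68 was 48.0 to 64.3 CPM in GFP+ libraries and 9.16 to 27.8 CPM in the other 10, without overlap, and none of the 4 was at 0 throughout. Against GFP− cells, 2 of the 4 were called higher, Cd68 by 2.17 ± 0.23 and Itgam by 1.46 ± 0.24 on the log2 scale (adjusted p 3.62e-06 and 0.000255, edgeR), and none lower. The other markers overlapped between the fractions. Lyz2 had 5.68, 14.3 and 21.2 CPM in GFP+ libraries, against 4.51, 12.9 and 9.57 CPM in GFP− libraries. Csf1r had 1.25, 4.58 and 1.61 CPM in GFP+ libraries, against 0.366, 4.26 and 0.452 CPM in GFP− libraries. Of the 3 regulatory T cell markers, Ikzf2, which encodes the transcription factor Helios, rose by 3.05 ± 0.24, while Il2ra fell by 1.77 ± 0.36 (adjusted p 1.69e-06 and 0.00139, edgeR). Foxp3 fell as well (adjusted p 0.0432, edgeR), with 0.554, 0.393 and 0.537 CPM in GFP+ libraries, against 1.95, 1.10 and 1.26 CPM in GFP− libraries. The 3 summed to 544 to 626 CPM in GFP+ libraries and 64.0 to 111 CPM in the other 10. Nearly all of the sum in GFP+ libraries was Ikzf2, at 541 to 621 CPM, so the sum stands for that gene and not for Il2ra and Foxp3. The part of the cells marked by these lists in the V gene levels and shares was not tested.

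Other genes of the receptor complex were measured in the same fit. Of 28 genes of the complex and its assembly, 9 were tested, of which 5 were higher in GFP+ cells and 1 was lower by level, against 20.7% of all genes higher and 16.5% lower. The median log2 fold change was 0.42 over the 9 and 0.02 over all tested genes. Trac, the alpha constant region, had 789, 880 and 800 CPM in GFP+ libraries, against 600, 641 and 603 CPM in GFP− libraries, a rise of 0.42 ± 0.15 (adjusted p 0.0375, edgeR). The co-receptor Cd4 rose by 0.50 ± 0.12, and the signalling chains Cd247, Cd3d and Cd3e rose by 0.38 ± 0.10, 0.51 ± 0.14 and 0.80 ± 0.12.

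The beta constant regions Trbc1 and Trbc2 differed by 0.24 ± 0.11 and 0.28 ± 0.15, with adjusted p of 0.112 and 0.174 by edgeR. Trbv counts per 100 Trbc counts were 24.5, 32.2 and 26.2 in GFP+ libraries, against 24.0, 25.8 and 29.7 in GFP− libraries, and these overlapped. Dntt, which encodes the polymerase that adds bases at V, D and J junctions, stood at 0.139, 0.393 and 0 CPM in GFP+ libraries, against 8.17, 5.97 and 4.79 CPM in GFP− libraries, and it fell by 5.12 ± 0.52 (adjusted p 3.02e-06, edgeR). Rag1, Rag2 and all Trbj and Trbd rows were at 0 in all 13 libraries.

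V gene usage was also less even in the GFP+ libraries than in the GFP− libraries. The number of Trbv rows with a count was not lower, at 22, 24 and 22 in GFP+ libraries, against 21, 23 and 22 in GFP− libraries. The effective number of V genes, the exponential of the Shannon entropy of the shares, is the number of equally used genes that would give the same evenness. It was 15.3, 15.2 and 15.5 in GFP+ libraries, against 16.6, 17.1 and 16.7 in GFP− libraries. The mean was 15.3 ± 0.117 in GFP+ and 16.8 ± 0.273 in GFP− cells (SD, n = 3 each), a difference of -1.49 genes. The groups did not overlap, and the exact permutation p of 0.1 is the smallest that 3 against 3 libraries allow (0.48 after adjustment over 24 tests), so the design cannot pass the threshold. The pairs differed by -1.31, -1.90 and -1.27 genes.

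The remaining groups lay nearer to GFP− than to GFP+ cells on this measure. Eomes-TKO libraries had 16.9 and 17.1 effective genes after 4-1BB antibody and 17.0, 16.8 and 17.1 after control IgG, and Eomes-GFP libraries had 17.3 and 17.4 after control IgG. All 10 lay above the 3 GFP+ libraries. The Eomes-GFP libraries after control IgG also lay, without overlap, above the GFP− libraries and above the Eomes-TKO libraries after control IgG. The exact permutation p was 0.2 for each, the smallest these group sizes allow. The share of the leading V gene did not separate the fractions as clearly, with 13.4%, 13.7% and 15.4% in GFP+ libraries, against 13.4%, 11.3% and 12.9% in GFP− libraries (exact permutation p = 0.2).

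**Figure D3:**
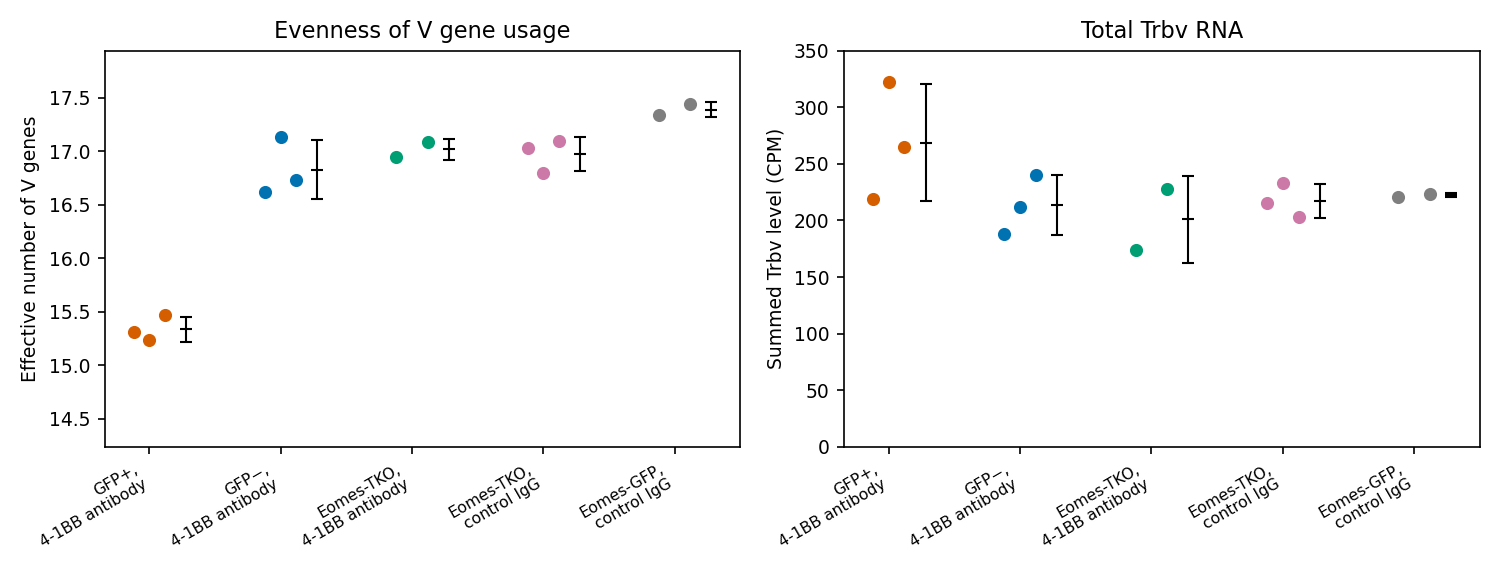
Effective number of V genes (left, y axis not starting at 0) and summed Trbv level in CPM (right, y axis from 0) for each library of the 5 groups; points are libraries, black bars are the mean ± SD. The GFP+ libraries (15.2 to 15.5) lie below all 10 others in the left panel and overlap them in the right panel.

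The 3 GFP+ libraries differed among themselves in which V genes were high. Trbv13-2 was 13.4% in GFP+ replicate 1, against 8.58% and 8.57% in GFP+ replicates 2 and 3. Trbv13-3 was 9.80% in GFP+ replicate 2, against 4.18% and 2.03% in replicates 1 and 3, and the 95% Wilson intervals of the 3 shares were apart (8.68% to 11.0%, 3.30% to 5.28% and 1.54% to 2.67%). In GFP− libraries Trbv13-3 stayed between 3.38% and 5.01%.

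Trbv5 was 13.1% and 13.7% in GFP+ replicates 1 and 2 and 6.25% in replicate 3, against 9.40%, 8.52% and 6.34% in GFP− libraries. Trbv3, formerly Vβ16, was 10.7%, 13.7% and 15.4% in GFP+ libraries, against 13.4%, 11.3% and 12.9% in GFP− libraries. Trbv29, formerly Vβ7, was 3.10%, 1.14% and 0.771% in GFP+ libraries, against 2.53%, 2.30% and 3.38% in GFP− libraries. Trbv12-1 reached 2.52% in GFP+ replicate 3 and stayed between 0.269% and 1.49% in all other libraries. Trbv2 was 10.7%, 6.06% and 8.36% in GFP+ libraries, against 6.74%, 7.54% and 6.34% in GFP− libraries, so its shares overlapped and were lower in GFP+ cells in 1 of 3 prefix pairs. The 3 remaining leading genes also overlapped between the fractions, Trbv13-1 with 5.19% to 6.46% in GFP+ and 4.09% to 7.77% in GFP−, Trbv15 with 5.65% to 8.16% in GFP+ and 6.16% to 7.78% in GFP−, and Trbv19 with 5.08% to 8.24% in GFP+ and 7.39% to 9.08% in GFP− libraries.

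This heterogeneity was summarised by the total variation distance, the share of Trbv counts that would have to move between V genes to make 2 libraries alike, given in percentage points. Among the 3 GFP+ libraries it was 13.7 to 20.0 points, against 7.72 to 9.85 points among the 3 GFP− libraries. It was 6.58 points between the Eomes-TKO libraries after 4-1BB antibody, 5.17 to 8.96 points among those after control IgG and 9.30 points between the Eomes-GFP libraries after control IgG. GFP+ libraries lay 12.9 to 21.2 points from the other 10, a range like that among themselves, and the other 10 lay 5.17 to 12.5 points from each other.

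By the median, GFP+ and GFP− libraries sharing a prefix were not closer. Pairs with the same prefix were 13.6 to 17.2 points apart, with a median of 17.0. Those with different prefixes were at least 12.9 points apart, with a median of 16.1, and their largest distance exceeded 17.2 points. The range for different prefixes thus enclosed that for the same prefix, and 3 same-prefix pairs are too few to decide whether a shared prefix matters. The chi-square of Trbv counts per degree of freedom, near 1 where libraries differ by counting error alone, was 11.0 among GFP+ libraries, against 2.30 among GFP− libraries. It was 2.53 over the 10 libraries outside the GFP+ group. Over all genes the same measure was 9.31 to 31.0 between pairs of GFP+ replicates and 12.9 to 26.3 between pairs of GFP− replicates, and these ranges overlapped. Trbv13-3 contributed 32.5% and Trbv5 17.0% of the GFP+ value. Leaving out 1 GFP+ library at a time gave 14.0 without replicate 1, 10.4 without replicate 2 and 6.57 without replicate 3, against 1.81 to 3.05 in the same omissions among GFP− libraries.

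**Figure D4:**
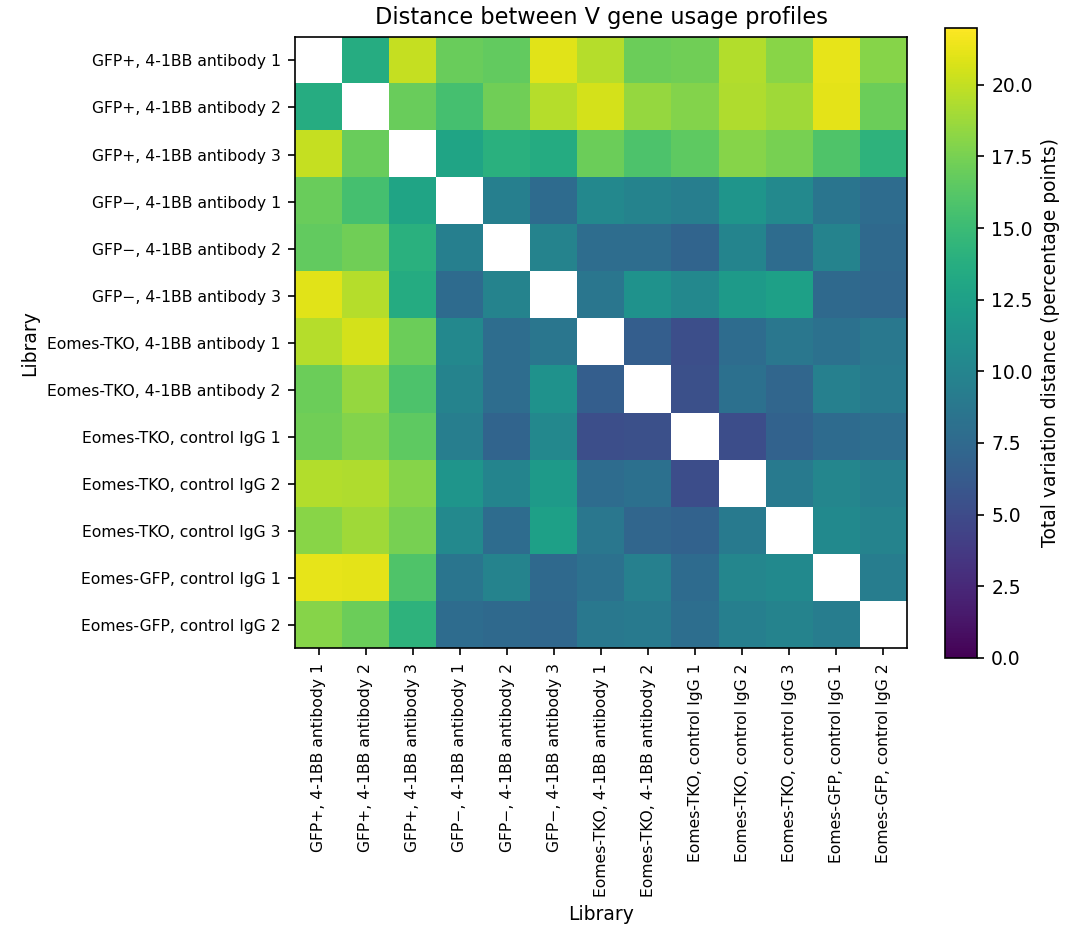
Total variation distance in percentage points (colour scale) between the V gene usage of each pair of the 13 libraries; rows and columns are libraries in group order and the diagonal is left blank. The GFP+ rows are the most distant, at 12.9 to 21.2 points from the 10 other libraries, and are 13.7 to 20.0 points from each other.

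The GFP+ libraries also entered comparisons with Eomes-TKO cells after the same antibody and with undivided Eomes-GFP cells after control IgG. Antibody and fraction both differ between GFP+ cells and the undivided Eomes-GFP cells after control IgG, and cannot be told apart there. These comparisons share the GFP+ libraries with the one above, so their values stand beside it and add no independent GFP+ samples. In GFP+ cells against Eomes-GFP cells after control IgG, edgeR called 3 of 21 V genes by usage, all lower, against 26.9% of all genes, 10.1% higher and 16.8% lower. Trbv1 had a log2 fold change in usage of -1.33 ± 0.24, Trbv14 of -1.37 ± 0.36 and Trbv17 of -1.19 ± 0.38, with adjusted p of 0.000865, 0.0107 and 0.029.

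Trbv17, formerly Vβ9, made up 1.01%, 0.569% and 0.974% in GFP+ libraries, against 1.67% and 2.19% in Eomes-GFP libraries after control IgG. Its call was lost in 5 of 10 alternatives, among them those leaving out either Eomes-GFP library or GFP+ replicate 2, with adjusted p up to 0.217. Trbv14 lost its call without Eomes-GFP replicate 1, where its adjusted p was 0.192, and with the groups compared alone. The Trbv1 call was kept in all 10.

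By level, 6 of 21 V genes were called in that comparison, against 34.2% of all genes, 18.8% higher and 15.4% lower. Trbv2, Trbv13-2 and Trbv16 were higher, by 0.60 ± 0.18, 0.85 ± 0.24 and 0.84 ± 0.23. Trbv1, Trbv14 and Trbv17 were lower, at -1.05 ± 0.25, -1.12 ± 0.35 and -0.95 ± 0.35. Without Eomes-GFP replicate 1 none of the 6 was called. The call of Trbv2 was also lost without Eomes-GFP replicate 2 or GFP+ replicates 1 or 3, that of Trbv13-2 without GFP+ replicate 1, that of Trbv14 without GFP+ replicate 3, that of Trbv16 without Eomes-GFP replicate 2 and that of Trbv17 without each single library of both groups, with adjusted p up to 0.292. The Trbv14 change was -0.72 without Eomes-GFP replicate 1.

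In Eomes-TKO cells against GFP+ cells, both after 4-1BB antibody, edgeR called 4 of 21 V genes by usage, 3 higher and 1 lower, against 33.7% of all genes, 25.3% higher and 8.45% lower. Trbv1 was 6.82% and 5.95% in Eomes-TKO libraries, against 2.34%, 2.44% and 3.29% in GFP+ libraries, a log2 fold change of 1.23 ± 0.25 (adjusted p 0.00161) that was kept in all 10 alternatives. Trbv14 was 2.42% and 2.79% in Eomes-TKO libraries, against 1.27%, 0.976% and 0.609% in GFP+ libraries, with 1.48 ± 0.36 (adjusted p 0.00646, edgeR). The Trbv14 call was kept in 9 of 10 alternatives and lost with the groups compared alone (adjusted p 0.0599, edgeR). Trbv31 was higher by 0.63 ± 0.23 and Trbv13-2 lower by usage at -0.75 ± 0.26, with adjusted p of 0.0487 and 0.0407 by edgeR. These last calls were kept in 2 and 4 of 10 alternatives, and both were lost without either Eomes-TKO library or without GFP+ replicate 1, and that of Trbv31 also without GFP+ replicate 2, with adjusted p up to 0.232.

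By level, edgeR called 6 of 21 V genes in that comparison, against 34.6% of all genes, 15.7% higher and 18.8% lower. Trbv1 and Trbv14 were higher in Eomes-TKO cells, by 0.81 ± 0.26 and 1.10 ± 0.36. Trbv3, Trbv13-2, Trbv16 and Trbv26 were lower, at -0.78 ± 0.25, -1.11 ± 0.25, -0.74 ± 0.23 and -0.91 ± 0.31. Without Eomes-TKO replicate 1 after 4-1BB antibody, 1 of the 21 V genes was called, Trbv14, and Trbv13-2 had an adjusted p of 0.0549. In that omission the differences of Trbv3 and Trbv16 were -0.50 and -0.46. Without replicate 2 the calls of Trbv1, Trbv14 and Trbv26 were lost, without GFP+ replicate 1 that of Trbv1, without GFP+ replicate 2 those of Trbv3, Trbv16 and Trbv26, and without GFP+ replicate 3 those of Trbv3, Trbv14, Trbv16 and Trbv26, with adjusted p up to 0.257. GFP+ cells are a sorted fraction and the Eomes-TKO cells were not divided, so genotype and fraction cannot be told apart here.

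No V gene was called in the 4 comparisons without GFP+ cells, by level or by usage. These were Eomes-TKO cells after 4-1BB antibody against control IgG, Eomes-TKO against Eomes-GFP cells after control IgG, Eomes-TKO after 4-1BB antibody against GFP− cells, and GFP− cells against Eomes-GFP cells after control IgG. EdgeR called 0.0427%, 0.0142%, 0.0427% and 0.761% of all genes by level in the same 4 comparisons, and 0.22%, 0.0142%, 0.0% and 0.462% by usage. Of 21 V genes, 0, 1, 1 and 0 had an unadjusted p under 0.05 by level and 0 by usage in each, and limma-voom and DESeq2 also called 0.

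The 4-1BB antibody in Eomes-TKO mice went with usage differences between -0.38 ± 0.38 for Trbv17 and 0.93 ± 0.50 for Trbv23, both with an adjusted p of 1 by edgeR. Trbv1 was 6.82% and 5.95% after 4-1BB antibody, against 7.64%, 8.43% and 7.77% after control IgG. The groups did not overlap for Trbv1 and 6 other V genes, 7 of 21, against 14.4% of all genes with 2 against 3 libraries. Between Eomes-TKO and Eomes-GFP cells after control IgG, the largest usage difference was -0.99 ± 0.49 for Trbv29 (adjusted p 1, edgeR), which had 1.84%, 1.02% and 2.15% in Eomes-TKO libraries, against 2.65% and 3.89% in Eomes-GFP libraries. There 9 of 21 V genes did not overlap, against 17.8% of all genes.

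Between Eomes-TKO cells after 4-1BB antibody and GFP− cells, usage differences ran from -0.84 ± 0.40 for Trbv12-2 to 0.44 ± 0.31 for Trbv20, and 8 of 21 V genes did not overlap, against 13.6% of all genes. Between GFP− cells and Eomes-GFP cells after control IgG they ran from -0.67 ± 0.55 for Trbv12-1 to 0.57 ± 0.38 for Trbv12-2, and 2 of 21 did not overlap, against 21.9% of all genes. None of these differences passed the threshold.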

How the data were processed

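RNA was measured by sequencing of rRNA-depleted libraries made from 11 ng of total RNA, per the labels' protocols. The values are estimated counts of a gene table deposited by the authors. Per the submitters' processing notes, the genome build was GRCm39 and the tools were STAR 2.7.10a, Salmon 1.5.2, cutadapt 3.4 and Trim Galore 0.6.7. Of 47 library columns, 13 matched a sample and 34 were not used. Counts, of which 6.25% to 7.33% per library were not whole, were rounded. How reads of rearranged V regions were aligned is not given in the sources used here.

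Differences were tested with edgeR 4.0.16 (R 4.3.3), robust quasi-likelihood, filterByExpr with a minimum count of 10, 14059 genes, 5 groups in 1 model with 8 residual degrees of freedom, and Benjamini-Hochberg adjustment over all genes at 0.05. The level fit used TMM scaling, and the usage fit the Trbv total as library size, which moved the median log2 fold change of all genes to -0.29 in GFP+ against GFP− cells. SE is the absolute log2 fold change over the root of its F statistic. Per-library measures were compared by exact permutation. All tests are two-sided, and intervals and floors cover counting error only. Alternatives were other scalings, limma-voom 3.58.1, DESeq2 1.42.0, no filter, groups fitted alone, a replicate block and leaving out single libraries.

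Replicates of every group differed beyond counting noise. V genes were named if called in either fit, if averaging at least 5% of Trbv counts, or if leading a library, and receptor complex genes if called in GFP+ against GFP− cells. Other V genes, among them Trbv4, Trbv12-1, Trbv12-2, Trbv13-3, Trbv20, Trbv23, Trbv24 and Trbv29, were named after their values were seen. The members, lists and tests were chosen with earlier results of these data known. Annotation and sequences came from GENCODE M21 on GRCm38, with older V gene names from RefSeq, and coordinates were not used. The fit was tested on simulated data in which no Trbv gene was changed and every gene had the same spread. That test therefore does not show how well V gene differences are found.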

Additional observations from a re-analysis of the deposited data

How the results depend on the processing

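The Trbv1 and Trbv14 changes in usage kept their direction under every alternative in all 3 comparisons with GFP+ cells. Over all values recomputed, 488 stayed on their side of the threshold and in their direction, 87 single-gene calls were lost and 27 values moved or reversed. Of GFP+ against GFP− cells, 8 V genes were called by level without the filter on low counts, and 2 to 6 when single libraries were left out. By usage 2 to 4 were called in those omissions. Of Eomes-TKO against GFP+ cells, 1 V gene was called by level and 1 by usage with the groups compared alone, and 2 by usage with limma-voom and 2 without the filter; leaving out libraries gave 1 to 7 by level and 2 to 5 by usage. Of GFP+ against Eomes-GFP cells after control IgG, 1 was called by usage with the groups compared alone, and omissions gave 0 to 6 by level and 1 to 5 by usage. Single omissions turned the sign of differences in summed Trbv level, which then ran from -43.4 to 10.6 CPM in Eomes-TKO cells after 4-1BB antibody against control IgG, from -12.8 to 1.84 CPM in Eomes-TKO against Eomes-GFP cells after control IgG, from -39.6 to 14.4 CPM in Eomes-TKO against GFP− cells and from -22.4 to 3.77 CPM in GFP− against Eomes-GFP cells. The effective number of V genes in treated against control Eomes-TKO cells ran from -0.046 to 0.112. The leading share in Eomes-TKO against Eomes-GFP cells after control IgG differed by -0.51 points, and by 0.69 points with counts per transcript length, an alternative chosen after seeing the data. The cause was not tested for any of these. The difference of -1.49 effective genes between GFP+ and GFP− cells ran from -1.34 to -1.60 when single libraries were left out. Its most distant alternative, at -2.04, was the inverse Simpson index, another measure of evenness on its own scale. Among the alternatives, the depth correction of entropy (-1.51) and counts per transcript length (-1.77) were chosen after seeing the data.

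With the library prefix as a replicate block, 5 V genes were called by level and 2 by usage in GFP+ against GFP− cells, with Trbv1 at -1.09 (adjusted p 0.0064) and Trbv14 at -1.20 (adjusted p 0.0311) by usage, and no call changed. The exact sign-flip permutation test over the 3 pairs gave p = 0.25 for summed Trbv level and for the effective number, the smallest that 3 pairs allow, and 0.5 for the leading share. Over all tested genes, deviations from group means correlated at 0.36, 0.11 and 0.06 within prefix pairs and at -0.28 to 0.19 between prefixes. GFP+ replicates 1 and 3 correlated best with the GFP− library of their own prefix, and GFP+ replicate 2 with GFP− replicate 3. Over the tested V genes the correlations were -0.07, 0.14 and 0.26 within prefix pairs and -0.32 to 0.19 between prefixes. The prefixes thus did not pair the libraries clearly. Depth limits V genes averaging under 1% of Trbv counts most. The highest count of such a gene in a library was 62, for Trbv12-1 in GFP+ replicate 3, where its share was 2.52%.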
